A study of Mus musculus with 3 samples.

Results

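The genes described here are 10 that mark long-lived tissue macrophages: the 4 receptors Timd4, Lyve1, Folr2 and Vsig4, the scavenger receptors Cd163, Stab1 and Colec12, the enzymes Cbr2 and F13a1, and the lectin Fcna. They were taken by symbol, and each matched 1 of the 27998 genes that all 3 tables share. The tables hold UMI counts, that is counts of distinct RNA molecules, for single cells of mouse hearts made with 10x 3′ chemistry v2. One library held macrophages at steady state and a second held macrophages at day 11 after myocardial infarction. The mice of both were Cx3cr1CreER-YFP/+:R26Td/+, an allele pair in which Cx3cr1 drives an inducible Cre and a fluorescent protein, with a red Cre reporter at Rosa26. The last library held both macrophages and dendritic cells (DCs) of steady-state hearts of wild-type mice. The mice of all 3 groups were C57BL/6 and aged 8 to 12 weeks. The sort took live CD45+CD64+CD11b+ cells as macrophages, with CD64 from low to high. DCs were gated on CD45, CD11c and intermediate to high MHCII without CD64, after a digestion with flavopiridol in the buffer. Each group has 1 library, the labels do not give the number of animals pooled or a tamoxifen treatment, and no sham-operated group is named.

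Many tissues hold macrophages that seeded them early in life and renew in place with little input from blood monocytes. In the heart and elsewhere such cells are known for receptors that take up dying cells and spent molecules. Timd4 binds phosphatidylserine on dying cells, Lyve1 binds hyaluronan, Folr2 binds folate and Vsig4 binds complement fragments. After infarction, monocytes enter the heart in large numbers and become macrophages, which as a rule lack these receptors at first.

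After removal of cells with under 500 genes or over 10% mitochondrial UMIs, 1767 steady-state cells, 4673 day 11 cells and 1767 cells of the macrophage and DC library remained, with medians of 10834, 8246 and 7193 UMIs per cell. Cells were clustered without the 10 genes, and all clusters but those of B-like, T or NK-like, DC-like and endothelial-like cells and 1 unnamed cycling cluster with DC genes were set down as macrophage clusters. These hold 1707, 4516 and 1026 cells, of which 113, 244 and 218 lie in clusters 4 and 6. Both were named classical monocyte-like from genes such as Ly6c2, Plac8 and Chil3. The top gene of cluster 4 was Ace, however, and that of cluster 6 was Ly6c2, so the shared name does not make them alike. The defining macrophage gene C1qa was found in 100%, 99.8% and 90.3% of the macrophage-cluster cells, and in 100%, 99.5% and 73.4% of all kept cells. In the steady-state and day 11 macrophage libraries its share thus did not tell these clusters from the rest. Its level was also part of the rule that set the clusters. Fcgr1, which encodes the sorted CD64, was found in 84.2%, 77.5% and 40.1% of the macrophage-cluster cells. The macrophage clusters of the third library thus carry less of the gate's own gene. The libraries share 8 (steady state and day 11), 7 and 11 cell barcodes.

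All 4 receptors were lower at day 11 than in the steady-state macrophage library. Levels are given as CPM, the gene's UMIs scaled to 1000000 UMIs of the library. Timd4 stood at 114 CPM at steady state (95% exact Poisson interval 109.8–118.5) and 14.5 at day 11 (13.4–15.6), which is 7.89-fold lower (95% exact interval 7.24–8.60). Lyve1 stood at 395 (387–403) and 54.7 (52.5–56.9) CPM, 7.23-fold lower (6.92–7.56). These were the largest and second largest folds of the 10 genes. Folr2 went from 1108 to 269.8 CPM, 4.11-fold lower (4.02–4.19). Vsig4 went from 51.4 to 13.2 CPM, 3.89-fold lower (3.52–4.30). Every interval given here covers counting error only, and with 1 library a group the spread between animals is unknown, so no difference between libraries was tested.

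The 6 other genes included 5 that were also at least 2-fold lower and 1 that was not. Of the scavenger receptors, Cd163, which takes up haemoglobin bound to haptoglobin, stood at 188.7 CPM at steady state and 37.5 at day 11 (5.04-fold lower, 4.76–5.33). Colec12, a collectin that binds sugars and oxidised lipoprotein, stood at 66.8 and 10.0 (6.68-fold lower, 6.01–7.43). Stab1, an endocytic receptor for SPARC and modified lipoprotein, stood at 369.5 and 234.4 (1.58-fold lower, 1.53–1.62) and was the exception. The carbonyl reductase gene Cbr2 went from 679.3 to 170.5 CPM, the coagulation factor XIII A subunit gene F13a1 from 1214 to 329.2, and the ficolin gene Fcna from 131.1 to 34.5, which are 3.98-, 3.69- and 3.8-fold lower. In all, 9 of the 10 were lower by 2-fold or more, against 2.64% of the 5331 genes at or above 20 CPM in either library, and the median log2 ratio was -2.02 against -0.06. In the macrophage clusters alone it was again 9 of 10, against 2.63%, and it was 9 of 10 with the monocyte-like clusters left out of them too.

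**Figure D1:**
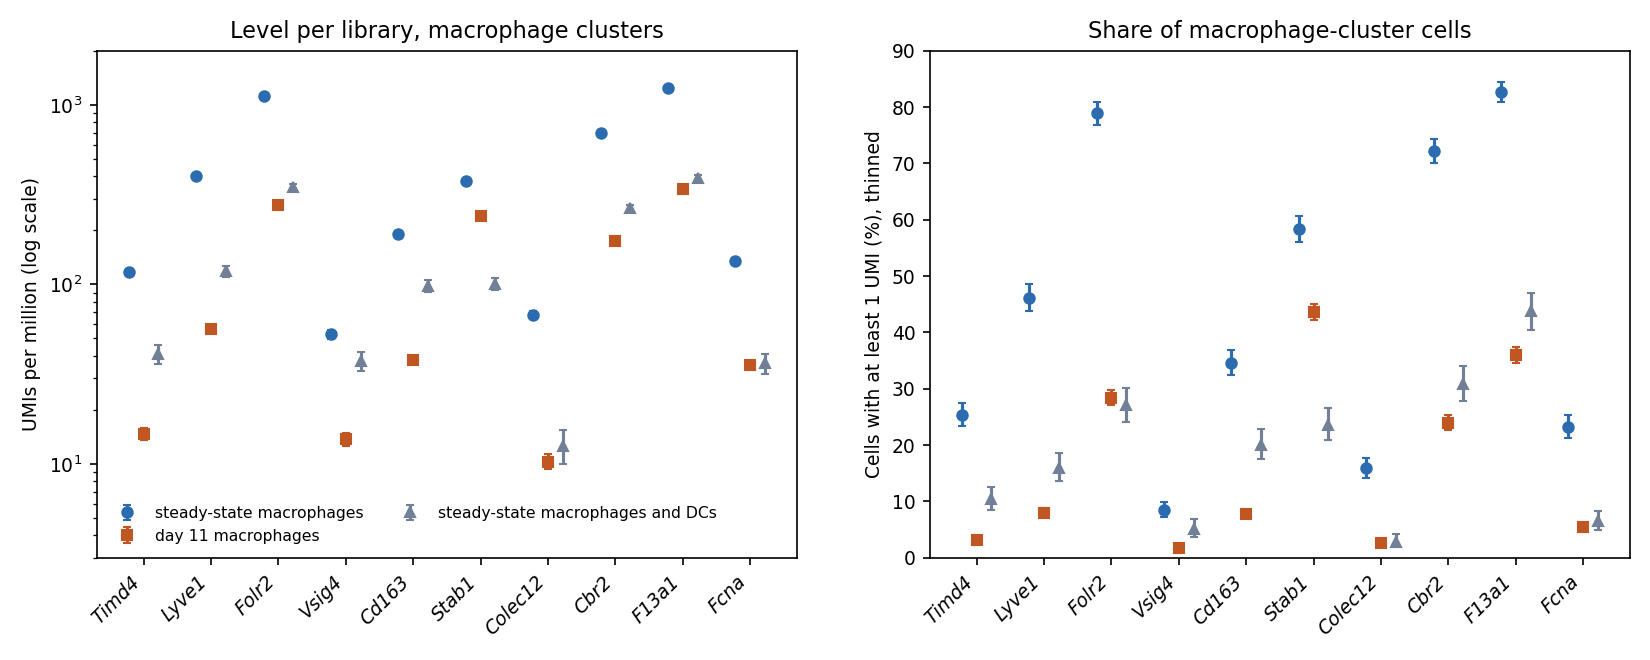
Level of each gene (left, CPM on a log axis) and share of cells with at least 1 UMI after thinning (right, percent) in the macrophage clusters of each library, with 95% exact intervals from counting error. At day 11 the level of 9 genes is less than 0.5 times that of the steady-state macrophage library, and Stab1 is the exception.

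The share of cells in which each RNA was found was lower at day 11 too. Detection in a cell depends on the level there, so these shares cannot split fewer cells with the RNA from less RNA per cell. Cells were thinned to 3000 UMIs each so that depth was equal, which left out 0, 84 and 172 shallower cells. Timd4 was then found in 24.7% of steady-state cells (22.7–26.8, 437 of 1767) and in 3.09% of day 11 cells (2.61–3.64, 142 of 4589). Lyve1 was found in 45.7% (43.3–48.0) and 7.80% (7.04–8.62) of cells, Folr2 in 78.4% (76.4–80.3) and 27.9% (26.6–29.2), and Vsig4 in 8.26% (7.02–9.65) and 1.72% (1.37–2.14). Without thinning the shares at steady state and day 11 were 55.5% and 7.60% for Timd4, 69.4% and 13.01% for Lyve1, 93.7% and 42.2% for Folr2, and 19.1% and 3.25% for Vsig4. Intervals of the shares at the 2 times did not overlap for any of these genes. They cover counting error only, and how often this holds over all genes was not computed. Cells outside the macrophage clusters gave the background. The 60 such steady-state cells had Timd4 in 6.67%, Lyve1 in 31.7%, Folr2 in 63.3% and Vsig4 in 3.33% after thinning, and the 150 such day 11 cells had them in 2.0%, 3.33%, 14.0% and 0%. These shares, too, were lower at day 11, and the part of free RNA and doublets in the values of either library was not tested.

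Among thinned cells with the RNA, the mean count was less far apart. Timd4-positive cells held 1.35 Timd4 UMIs at steady state and 1.29 at day 11, and Vsig4-positive cells held 1.93 and 2.01 Vsig4 UMIs. A level near 1 UMI per positive cell is close to the least that can be seen, so for Timd4 this value could hardly have been lower. Folr2-positive cells held 4.14 and 2.65 Folr2 UMIs, F13a1-positive cells 4.22 and 2.62 F13a1 UMIs, and Lyve1-positive cells 2.44 and 1.98 Lyve1 UMIs. For these 3 genes both the share of cells and the count in positive cells were lower at day 11. Shares of cells with the other 5 genes went from 34.2% to 7.63% for Cd163, from 57.7% to 42.6% for Stab1, from 15.7% to 2.61% for Colec12, from 71.1% to 23.6% for Cbr2 and from 22.9% to 5.25% for Fcna.

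Vsig4 was the most unevenly spread of the 10 genes at steady state. In the macrophage clusters its mean was 0.511 UMIs per 10000, with an SD of 2.08 over cells, a median of 0 and a highest cell of 36.8. The 171 cells with the highest Vsig4 level, 10% of all, held 88.7% of the gene's summed per-cell level. The same share was 42.4% for Timd4, 41.9% for Lyve1, 30.6% for Folr2 and 26.9% for Stab1. At day 11 the 452 cells with the highest level held 100% of Timd4, Vsig4 and Colec12, 95.8% of Lyve1, 64.6% of Folr2 and 37.2% of Stab1. The 100% values were fixed by detection, since only 343, 151 and 311 day 11 macrophages had any UMI of Timd4, Vsig4 and Colec12. Stab1 had UMIs in 3152 cells. These day 11 shares thus cannot split an uneven spread from a low level.

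The macrophage clusters of the third library, a second steady state, gave lower levels than the first. Timd4 stood there at 40.7 CPM, Lyve1 at 118.5, Folr2 at 346.9 and Vsig4 at 37.3, where the macrophage clusters of the first library held 116.7, 399.6, 1127 and 52.8. Of the 10 genes, 8 were at least 2-fold lower in the third library than in the first, against a background of 8.36% of genes. The exceptions were Vsig4 (1.41-fold lower) and Cd163 (1.97-fold lower). The 2 steady-state libraries differ in genotype and in the cells sorted, and these cannot be told apart as sources of that difference. With the third library as reference, 4 of the 9 above the minimum (Colec12 was under it) were lower by 2-fold or more in the day 11 cells, against 2.83% of genes. These were Timd4 (2.78-fold), Lyve1 (2.10-fold), Vsig4 (2.72-fold) and Cd163 (2.56-fold). Folr2, Cbr2, F13a1 and Fcna were 1.25-, 1.52-, 1.16- and 1.02-fold lower, and Stab1 was 2.38-fold higher (2.21–2.58), where 5.89% of genes were at least 2-fold higher. The direction for Stab1 thus depended on the steady-state library, and that of Timd4, Lyve1, Vsig4 and Cd163 did not.

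The third library's macrophage clusters include cluster 16, led by Retnla, Lyz1 and Ear2, which held F13a1 at 157.8 CPM and the other 9 genes at 0.559 to 19.0. Without that cluster, a choice made after its values were seen, 843 cells remained, and the folds at day 11 were 3.76 for Timd4, 3.69 for Vsig4, 3.31 for Cd163, 2.86 for Lyve1, 2.06 for Cbr2 and 1.69 for Folr2. Stab1 was then 1.78-fold higher.

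The genes lie at 10 separate places on 8 chromosomes of mm10 (GENCODE vM21). Timd4 (ENSMUSG00000055546) is at chr11:46810800-46844332 on the plus strand. Lyve1 (ENSMUSG00000030787) is at chr7:110850607-110863239, Folr2 (ENSMUSG00000032725) at chr7:101839988-101857194, Vsig4 (ENSMUSG00000044206) at chrX:96247203-96293438 and Stab1 (ENSMUSG00000042286) at chr14:31139013-31168641, all on the minus strand. The 250 bases before the start of Timd4, Folr2, Vsig4 and Stab1 are shown, for Folr2 at its outer start. They are from RefSeq (GRCm38.p6), 5′ to 3′ on the gene's own strand. Capitals mark the letters GAGGAA and GGAAGT, which occur in sites of PU.1 and other ETS factors. PU.1 is the master factor of macrophages.
Timd4, chr11:46810549-46810798, plus strand: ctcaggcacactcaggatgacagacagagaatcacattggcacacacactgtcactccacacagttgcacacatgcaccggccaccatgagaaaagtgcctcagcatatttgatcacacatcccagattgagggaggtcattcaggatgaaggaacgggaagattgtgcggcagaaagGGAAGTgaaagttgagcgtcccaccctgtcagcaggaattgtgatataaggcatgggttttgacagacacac
Folr2, chr7:101857191-101857440, minus strand: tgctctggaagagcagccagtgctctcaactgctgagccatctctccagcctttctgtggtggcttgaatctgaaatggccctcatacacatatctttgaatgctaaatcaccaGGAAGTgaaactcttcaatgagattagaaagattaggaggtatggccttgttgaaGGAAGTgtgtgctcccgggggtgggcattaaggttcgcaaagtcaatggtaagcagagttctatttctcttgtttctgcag
Vsig4, chrX:96293439-96293688, minus strand: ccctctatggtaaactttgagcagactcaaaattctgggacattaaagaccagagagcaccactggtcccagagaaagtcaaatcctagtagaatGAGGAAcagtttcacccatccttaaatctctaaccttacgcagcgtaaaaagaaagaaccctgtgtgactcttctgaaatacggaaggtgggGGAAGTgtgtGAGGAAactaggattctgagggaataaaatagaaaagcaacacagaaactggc
Stab1, chr14:31168642-31168891, minus strand: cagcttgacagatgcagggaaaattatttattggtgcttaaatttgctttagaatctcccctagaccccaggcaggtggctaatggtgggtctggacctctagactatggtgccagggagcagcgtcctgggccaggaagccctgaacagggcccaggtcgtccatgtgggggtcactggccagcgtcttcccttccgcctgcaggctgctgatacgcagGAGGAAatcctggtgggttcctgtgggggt

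The table holds 10 promoters of 8 of the 10 genes, with 2 each for Folr2 and F13a1. In the genes' promoters, GAGGAA or GGAAGT, searched on both strands and able to overlap each other, were found in 8 of these 10 promoters, those of every gene but Cd163 in at least 1 copy. Of all 32851 promoters of that length, 36.7% hold either, 23.3% hold GAGGAA and 19.7% hold GGAAGT. In the stretches shown, Timd4 and Folr2 hold GGAAGT alone, Stab1 holds GAGGAA alone, and Vsig4 holds both. Of those not shown, the other Folr2 promoter and that of Cd163 hold neither, and that of Cbr2 holds GAGGAA alone. Cd163 and Cbr2 were 5.04- and 3.98-fold lower at day 11, so the letters did not sort the genes by their difference. A match is a description of letters, and binding was not measured.

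At steady state the genes were found in the same cells more often than most gene pairs. The measure is the odds ratio of joint detection in thinned cells, where 1 means that a cell with 1 gene has the other no more often than the rest. Of the 45 pairs of members, 35 had an odds ratio of at least 2 at steady state, against 2.52% of all gene pairs, and the median was 2.72 (range 1.32 to 6.63). The highest pairs joined Lyve1, Folr2, Cbr2 and F13a1: Lyve1 with F13a1 gave 6.63, Lyve1 with Folr2 5.84, Lyve1 with Cbr2 5.77 and Folr2 with Cbr2 5.44. F13a1 was in 94.4% of Lyve1-positive cells and 71.7% of Lyve1-negative cells, and Folr2 in 92.2% and 66.8%. Cells with Lyve1 were therefore nearly all cells with Folr2 and F13a1, but the reverse did not hold, since Folr2 and F13a1 were common in the rest too.

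Timd4 joined the same group. Folr2 was found in 92.4% of Timd4-positive steady-state cells (404 of 437) and in 73.8% of Timd4-negative cells, an odds ratio of 4.30. Lyve1 was found in 65.2% and 39.3% (odds ratio 2.90). Timd4 with Cbr2 gave 3.76, and Timd4 with Stab1 gave 1.32, the lowest of all 45 pairs. Vsig4 was bound to its companions more loosely: with F13a1 it gave 4.396 and with Folr2 2.92, but with Timd4 2.03, with Lyve1 2.08 and with Cd163 1.52. Of the 10 pairs under 2, 5 hold Stab1, 4 hold Cd163, 4 hold Fcna, 3 hold Colec12 and 3 hold Vsig4. Lyve1, Folr2, Cbr2 and F13a1 were in none of them.

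Odds ratios of joint detection were higher among the cells left at day 11. Of the 45 pairs, 44 had an odds ratio of at least 2, against 3.2% of all gene pairs, and the median was 7.07 (1.98 to 15.3). Lyve1 with Folr2 gave 15.3, Timd4 with Cbr2 15.1, Lyve1 with F13a1 14.3, Timd4 with Folr2 13.7, Timd4 with Vsig4 13.3 and Timd4 with Lyve1 13.2. The correlation r of levels over cells was lower at day 11 for each of these pairs but Timd4 with Vsig4. It went from 0.708 to 0.596 for Lyve1 with Folr2 and from 0.566 to 0.437 for Timd4 with Folr2. For Timd4 with Vsig4 it went from 0.204 to 0.297, so whether pairing was closer at day 11 depended on the measure. Folr2 was found in 83.1% of Timd4-positive cells (118 of 142) and in 26.2% of Timd4-negative cells. The first share was 92.4% at steady state and the second 73.8%, so the wider gap lay in the cells without Timd4. Folr2 in Lyve1-positive and Lyve1-negative cells went from 92.2% and 66.8% to 82.4% and 23.3%. Lyve1 in Timd4-positive and Timd4-negative cells went from 65.2% and 39.3% to 47.9% and 6.52%. Vsig4 was in 12.8% of Timd4-positive cells at steady state and 14.8% at day 11, while in Timd4-negative cells it went from 6.77% to 1.30%.

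Stab1 stood apart again. Its 9 pairs had odds ratios from 1.98 (with Colec12) to 2.97 (with Lyve1) at day 11. Stab1 was in 67.6% of Timd4-positive and 41.8% of Timd4-negative day 11 cells, where steady-state shares were 62.7% and 56.0%.

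**Figure D2:**
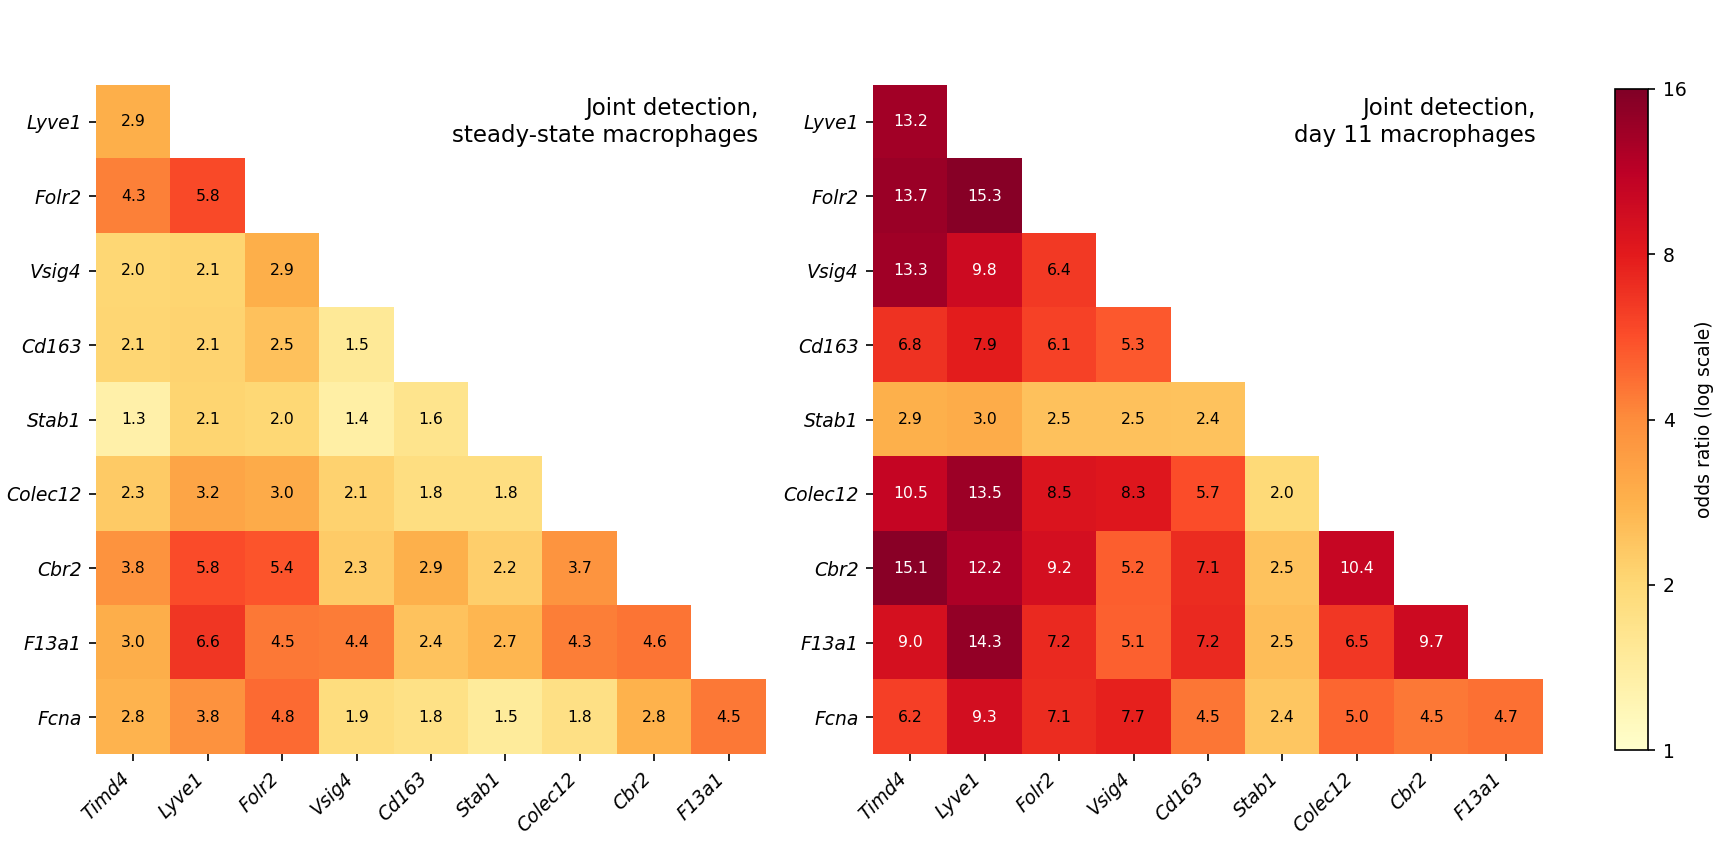
Odds ratio of joint detection for each of the 45 pairs in thinned cells of the steady-state macrophage library (left) and the day 11 library (right), with colour on a log scale. Odds ratios run from 1.32 to 6.63 at steady state and from 1.98 to 15.3 at day 11, and the pairs of Stab1 form the pale row and column on the right.

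The third library gave higher odds ratios still, over fewer pairs. All 28 pairs with enough cells had an odds ratio of at least 2 in its macrophage clusters, against 2.65% of gene pairs, and their median was 9.84. Timd4 with Folr2 gave 19.1 there and Lyve1 with Folr2 53.5. Folr2 was found in 83.5% of Timd4-positive macrophages of that library.

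Cells with Timd4, Lyve1 and Folr2 at once made up 15.7% of thinned steady-state cells (14.0–17.5, 277 cells) and 1.35% of day 11 cells (1.04–1.73, 62 cells). In the macrophage clusters these were 16.1% and 1.37%, and 6.74% (59 cells) in the third library. Cells with Lyve1 and Folr2 but no Timd4 were 26.4% and 5.08%. Cells with Folr2 as the 1 receptor of these 3 were 29.1% and 20.3%, and cells with none of the 3 were 16.6% and 70.3%. Timd4 without Folr2 or Lyve1 was found in 25 steady-state cells and 18 day 11 cells. A cell in which a gene was not found may still hold its RNA, since a thinned cell shows a part of its molecules, and the share of cells with all 3 at steady state was 48.1% without thinning.

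Over all 10 genes, a steady-state macrophage had a median of 5 found, and a day 11 macrophage had 1. None of the 10 was found in 2.28% of steady-state (39 cells) and 32.0% of day 11 macrophages (1421 cells), and in 41.0% of the third library (359 cells). At least 5 were found in 50.6%, 8.54% and 17.9%. At least 8 were found in 6.74%, 0.473% and 1.83%. Without the monocyte-like clusters the cells with none were 2.196%, 31.3% and 35.1%. The third library held more cells at both ends than the day 11 library, and fewer with 1 or 2 of the genes.

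**Figure D3:**
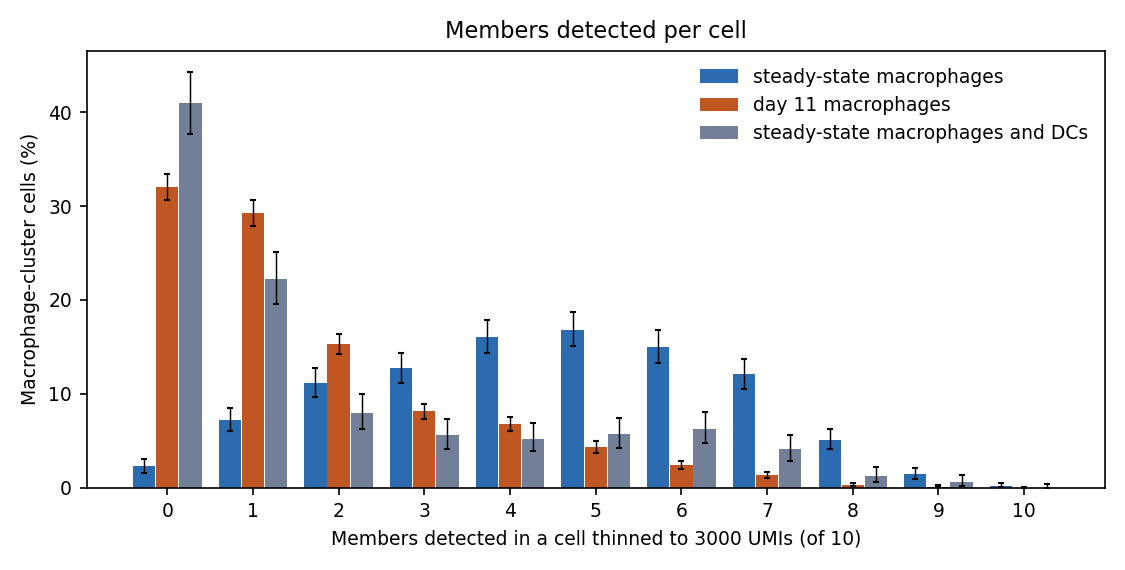
Share of thinned macrophage-cluster cells (percent, with 95% exact intervals) by the number of the 10 genes found in the cell, for each library. Steady-state macrophages centre on 5 genes, 32.0% of day 11 macrophages have none, and the third library has 41.0% with none and 17.9% with at least 5.

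The genes were concentrated in 2 clusters. Cluster 3 had a summed level of the 10 genes of 8697 CPM at steady state and cluster 2 had 4468. They were the highest of the clusters with at least 100 steady-state cells and were picked for that, after the values were seen. Cluster 2 was led by Pla2g2d and Cmah beside members, with Klf2 and Fxyd2. Cluster 3 was led by the haemoglobin genes Hbb-bs and Hba-a1, transcripts of red blood cells, with Cd209f, Ednrb and Ccl24 beside members; the part of red cell RNA in its values was not tested. Together they held 955 of the steady-state macrophages (55.9%) and 270 of the day 11 macrophages (5.98%), and 143 (13.9%) in the third library. At steady state 78.9% of Timd4, 82.7% of Lyve1, 79.4% of Folr2 and 81.0% of Vsig4 macrophage UMIs lay in these clusters, and at day 11 49.0%, 48.7%, 33.0% and 39.4%. For Stab1 the shares were 70.6% and 11.7%.

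Inside these 2 clusters the levels at day 11 were close to those of the first steady-state library. None of the 10 genes was 2-fold lower in cluster 2, in cluster 3 or in both as 1 set, where 0.514%, 0.831% and 0.411% of genes were. Over both clusters Timd4 stood at 123.3 CPM in the day 11 cells and 154.1 in the steady-state cells (ratio 0.80, 95% exact interval 0.708–0.902) and Lyve1 at 471.1 and 553.1 (0.852, 0.80–0.906). Folr2 stood at 1567 and 1496 (1.05, 1.01–1.08) and Vsig4 at 92.8 and 71.5 (1.30, 1.12–1.498). The mix of the 2 clusters differed, with 377 steady-state and 121 day 11 cells in cluster 3, and 578 and 149 in cluster 2. Taken alone, cluster 2 gave a Folr2 ratio of 0.916 (0.868–0.967) and cluster 3 gave 0.985 (0.942–1.03). Vsig4 gave 1.08 (0.837–1.39) and 1.17 (0.977–1.40), Timd4 0.839 (0.699–1.00) and 0.653 (0.552–0.770), and Lyve1 0.745 and 0.777. Against the first library, cells that cluster with the steady-state receptor-bearing cells thus held slightly less Timd4 and Lyve1 at day 11. The pooled Folr2 ratio above 1 was seen within neither cluster, and the Vsig4 interval within each cluster takes in 1. In the third library these clusters held Timd4 at 212.9, Lyve1 at 713.3, Folr2 at 1941 and Vsig4 at 225.3 CPM. Each was above its pooled day 11 level, so the direction of the pooled Folr2 and Vsig4 ratios depended on the steady-state library. Of the third library's cells there, 123 lay in cluster 3 and 20 in cluster 2, and the part of this mix was not tested. Day 11 cells of cluster 3 alone held Folr2 at 2332 and Lyve1 at 730.8 CPM, above those third-library values. They held Timd4 at 163.4 and Vsig4 at 153.7 CPM, below them. The clusters were built from both libraries without these 10 genes, but other genes that go with them shaped the clusters, so similar levels within a cluster are in part what clustering selects for.

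In the other macrophage clusters 9 of the 10 were lower by 2-fold or more, against 3.35% of genes. Timd4 stood at 7.95 and 61.1 CPM (7.69-fold lower, 6.69–8.85), Lyve1 at 30.7 and 171.4 (5.58-fold), Folr2 at 197.0 and 577.4 (2.93-fold), and Vsig4 at 8.83 and 24.9 (2.82-fold). Stab1 stood at 225.0 and 274.1 (1.22-fold lower, 1.16–1.27). The 60 steady-state cells outside the macrophage clusters held Timd4 at 45.3, Lyve1 at 282.5 and Folr2 at 612.8 CPM, near or above these steady-state levels, and the 157 such day 11 cells held 9.56, 13.5 and 98.9 CPM. The levels in macrophages outside clusters 2 and 3 thus differ between the times in the same direction as this background, and its part in the folds was not tested. These other clusters are not the same cells at the 2 times: clusters 8, 12, 15 and 18 held 19, 8, 17 and 1 steady-state cells and 788, 673, 854 and 674 day 11 cells.

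**Figure D4:**
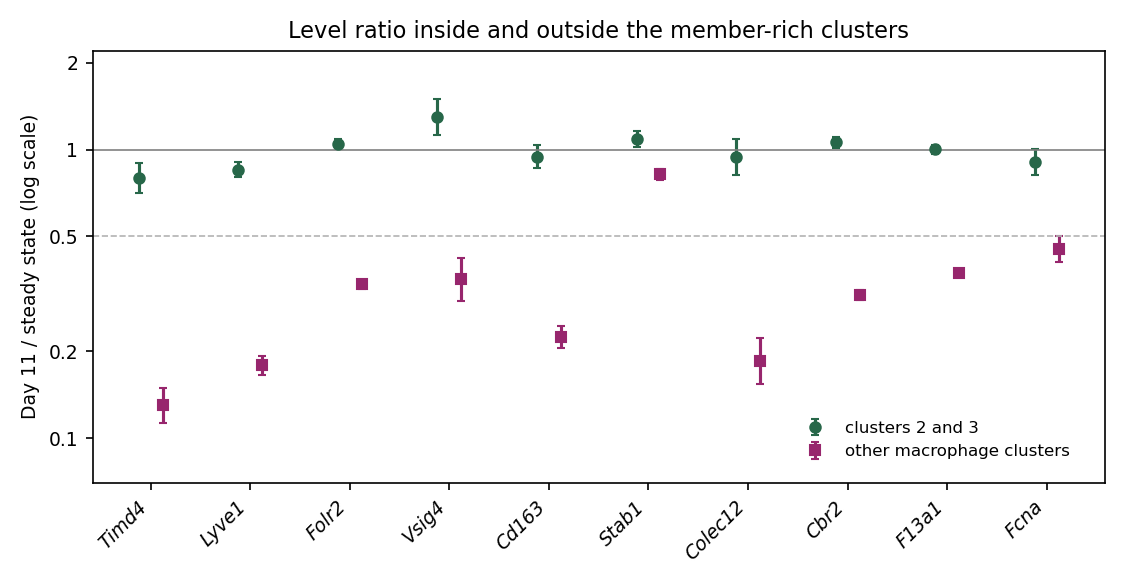
Ratio of the day 11 to the steady-state level of each gene (log axis, with 95% exact intervals) in clusters 2 and 3 as 1 set and in all other macrophage clusters; the solid line marks no difference and the dashed line a ratio of 0.5. Ratios lie from 0.80 to 1.30 in clusters 2 and 3, and below 0.5 elsewhere for every gene but Stab1.

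The pairing of the genes also differed between these sets of cells, a comparison chosen after the values were seen. Inside clusters 2 and 3 the median odds ratio of the pairs with enough cells was 1.65 at steady state (14 of 45 at 2 or more) and 1.67 at day 11 (14 of 36). In the other macrophage clusters it was 1.71 at steady state (11 of 28) and 4.51 at day 11 (41 of 45). The pairs with enough cells differ between these sets, and the share of all gene pairs at 2 or more in them was not computed. Timd4 with Lyve1 gave 1.65 and 1.60 inside clusters 2 and 3, and 2.67 and 9.83 outside. Lyve1 with Folr2 gave 2.73 and 2.18 inside, and 3.62 and 11.3 outside. Timd4 with Folr2 held at 3.12 and 3.10 inside, and went from 2.31 to 7.44 outside. For these pairs the higher odds ratio at day 11 was thus found outside clusters 2 and 3.

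Within clusters that both libraries fill, the difference varied. In cluster 7, led by cell cycle genes, 8 of the 10 were lower by 2-fold or more (background 2.25%), and Timd4 stood at 6.94 and 79.8 CPM. In cluster 1, led by Mmp13, Lilra5 and Hspa1a, 3 of 7 tested genes were lower (background 0.589%). In cluster 11 it was 9 of 10, with a background of 5.04%, and in cluster 4 it was 8 of 10, with 4.49%. In cluster 6 it was 5 of 7, with 5.24%. The monocyte-like clusters 4 and 6 differed in the summed level of the 10 genes. It was 3393 and 817 CPM at steady state, and 921 and 373 CPM at day 11. In cluster 5, which carried RNA of heart muscle genes such as Mb and Actc1, it was 3 of 10, with 2.72%.

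Of the clusters found mainly at day 11, cluster 15 held the most of these RNAs, 1836 CPM over the 10 genes. It was led by Saa3, Ccl8 and C4b with the fibroblast genes Col3a1 and Dcn, and the part of fibroblast RNA in it was not tested. Folr2 stood there at 458.7, F13a1 at 533.7, Stab1 at 342.1 and Cbr2 at 256.0 CPM, while Timd4 stood at 14.6 and Colec12 at 12.4. Of the day 11 Folr2-positive macrophages 37.8% lay in cluster 15, and of the Vsig4-positive 34.2% and the Fcna-positive 48.5%, but of the Timd4-positive 20.9%. Timd4-positive cells lay foremost in cluster 3 (30.2%) and cluster 2 (21.6%). Clusters 18, 12 and 8 summed to 583.1, 309.6 and 248.9 CPM, and Stab1 alone gave 308.7, 181.3 and 99.6 of these. Of the 1421 day 11 macrophages with none of the 10 genes, 31.4% lay in cluster 8, 20.9% in cluster 12 and 13.5% in cluster 18.

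**Figure D5:**
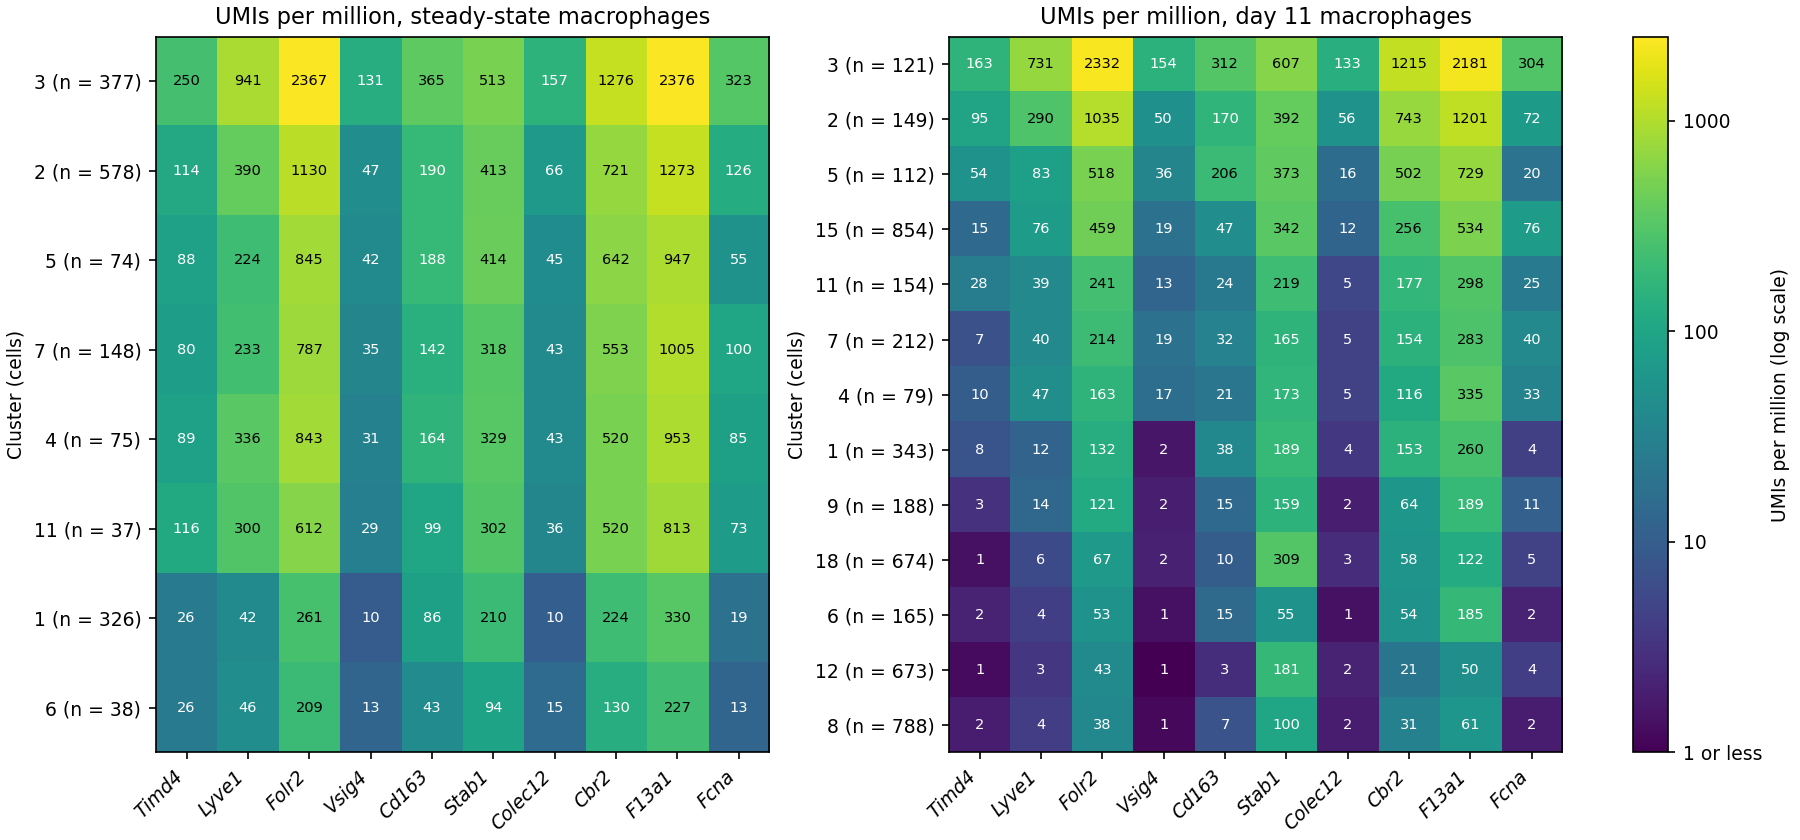
Level of each gene (CPM, colour on a log scale) in the macrophage clusters with at least 37 cells of the steady-state library (left) and at least 79 of the day 11 library (right). Rows are in order of the summed level, except that clusters 7 and 4 on the left and clusters 9 and 18 on the right are exchanged. Clusters 3 and 2 stand at the top of both, and in the lowest rows of the day 11 panel Stab1 is the brightest column.

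Cells chosen for the receptors themselves were then compared. Of the macrophages, 899 steady-state cells (52.7%) and 376 day 11 cells (8.47%) had at least 2 of Timd4, Lyve1, Folr2 and Vsig4. Of the 6 genes not used in that choice, Stab1 was slightly higher at day 11 (ratio 1.08), and the other 5 were lower: Colec12 at a ratio of 0.640, Cd163 at 0.677, Cbr2 at 0.770, F13a1 at 0.799 and Fcna at 0.865. The complement gene C1qa gave a ratio of 1.05 and the growth factor gene Igf1 1.22. Gas6, a bridge between dying cells and their receptors, gave 1.02, and Pf4 0.786. Retnla, which alternatively activated macrophages secrete, was 10.0-fold lower at day 11 (147.1 against 1471 CPM). Steady-state cells of the B-like, T or NK-like, cDC2-like and endothelial-like clusters held Retnla at 350.5 to 3339 CPM, and those of day 11 at 0 to 87.5 CPM, so the background differed in the same direction. The MHCII gene H2-Ab1 stood at 4848 against 6956. Higher at day 11 were osteopontin (Spp1, 306.2 against 53.1), fibronectin (Fn1, 161.0 against 15.1), the lipid receptor Trem2 (681.8 against 267.4) and Gpnmb (52.9 against 9.56). The same 4 kinds of cell at day 11 held 135 to 523 CPM of Spp1, 186 to 491 of Trem2 and 25.2 to 608 of Fn1, ranges that take in the Spp1 and Fn1 levels of the selected cells and lie below their Trem2 level, and the part of free RNA was not tested.

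The 61 day 11 and 274 steady-state macrophages with Timd4, Lyve1 and Folr2 were compared in the same way. Vsig4 stood at 219.8 and 112.2 CPM (ratio 1.96, 1.61–2.37), Cd163 at 204.8 and 288.7 (0.709), and Stab1 at 450.2 and 450.5. The 59 such cells of the third library held Vsig4 at 345.6, Cd163 at 483.9 and Stab1 at 345.6 CPM. Vsig4 was thus higher at day 11 than in the first library and lower than in the third. Colec12, Cbr2, F13a1 and Fcna gave ratios of 0.736, 0.775, 0.836 and 0.893. Retnla was 3.25-fold lower at day 11 (602.3 and 1957), H2-Ab1 gave a ratio of 0.668, Trem2 1.97 and Spp1 2.43. Fn1 gave a ratio of 13.8, where cells with at least 2 receptors gave 10.7. Of these cells, 47.5% at day 11 and 55.1% at steady state lay in cluster 3, and 24.6% and 32.8% in cluster 2.

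The chemokine receptor Ccr2, which marks macrophages newly made from monocytes, was found less often in cells with these receptors. At steady state it was in 18.9% of Timd4-positive macrophages (15.4–23.0) and 30.9% of Timd4-negative ones (28.4–33.5), and in 18.9% and 35.6% for Lyve1 and 24.1% and 42.2% for Folr2. At day 11 the shares were 14.4% and 35.4% for Timd4, 23.2% and 35.8% for Lyve1 and 28.6% and 37.2% for Folr2. Receptor and Ccr2 RNA were thus found in the same droplet at both times, and the part of free RNA and of doublets was not tested. Ednrb, an endothelin receptor, went with the receptors: it was in 27.8% of Lyve1-positive and 7.83% of Lyve1-negative steady-state macrophages, and in 17.8% and 1.98% at day 11. The mannose receptor gene Mrc1 was in 85.9% and 64.7% at steady state and in 77.6% and 48.3% at day 11.

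The genes whose levels over cells were most like those of the members came largely from a small group. Pearson's r of log-scaled levels over the 1767 kept steady-state cells was highest with Ltc4s, which makes leukotriene C4, for Folr2 (0.683), Lyve1 (0.659), Fcna (0.529), Timd4 (0.503) and Vsig4 (0.258). Over the 4673 day 11 cells those values were 0.556, 0.469, 0.444, 0.301 and 0.190. F13a1 was most like Gas6 (0.672 and 0.569), Cbr2 and Stab1 most like Pf4, platelet factor 4 (0.632 and 0.530 for Cbr2, 0.489 and 0.454 for Stab1), Colec12 most like Fcgrt (0.449 and 0.275), and Cd163 most like Sepp1 (0.392 and 0.252). Cells of 1 library share its depth and free RNA, so these are descriptions.

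Against the first steady-state library, 10 of 23 other genes of resident macrophages were at least 2-fold lower at day 11, where 2.64% of all genes were. Only 1 was at least 2-fold higher, and the median log2 ratio was -0.84. Lower were Pf4 (1631 against 4080 CPM), Ltc4s (180.2 against 406.8) and the eosinophil attractant Ccl24 (56.8 against 377.3), among others, and Ccl8 was higher (254.7 against 111.8). Between the macrophage clusters of day 11 and of the third library, 2 of 22 were at least 2-fold lower and 5 higher. The backgrounds were 2.83% and 5.89%, and the median log2 ratio was 0.39. The direction for this list thus depended on the steady-state library. Of 39 other scavenger, phagocytic and lectin receptors and relatives of the members, 19 were above the minimum against the first library. Of these, 3 were at least 2-fold lower (Cd36, Mgl2 and Cd209f). Another 3 were higher (Cd300lf, Havcr2 and Cxcl16), where 1.65% of all genes were, and the median was 0.21. Against the third library 17 were above the minimum, 2 were lower and 4 higher, with a median of 0.63. The relatives Folr1, Timd2, F13b and Fcnb had no UMI in either macrophage library. None of 10 general macrophage genes differed by 2-fold from the first library, and their median was 0.16. Against the third library 3 of the 10 were at least 2-fold higher at day 11, and their median was 0.80.

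Cells of other kinds held some of these RNAs too, and those of the steady-state library often did. The 28 B-like steady-state cells held Timd4 at 76.1, Lyve1 at 407.7, Folr2 at 800.6 and Vsig4 at 17.2 CPM, with C1qa at 5663 CPM over that cluster, and the 5 T or NK-like cells held Lyve1 at 705.7 and Folr2 at 1273 CPM. These lymphoid droplets were thus close to macrophages in Lyve1 and Folr2, and the part of doublets and of free RNA was not tested. The 15 cDC2-like cells held Lyve1 at 72.3 and Folr2 at 307.1 CPM. The 11 endothelial-like cells were lowest, with no UMI of Timd4 or Vsig4, 1 of Lyve1, and Folr2 at 162.4 CPM in 8 of 11 cells. Lyve1 also marks lymphatic vessels, whose factor gene Prox1 was found in 11, 1 and 1 macrophage-cluster cells.

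The day 11 library held less of these RNAs in such cells. Its 115 cDC2-like cells held Folr2 at 83.0, F13a1 at 105.3, Timd4 at 8.90 (95% exact Poisson interval 4.60–15.5) and Vsig4 at 0.741 CPM, and its 11 endothelial-like cells held no UMI of the 4 receptors. Averaged over the day 11 macrophages outside clusters 2 and 3, Timd4 stood at 7.95 CPM, which lies within that interval. That average was thus not distinguishable from the level in cDC2-like cells at this depth, but the clusters in it were not alike. Timd4 stood above the interval in cluster 5 (54.3 CPM, 38 UMIs) and cluster 11 (28.0 CPM, 42 UMIs), and at 2.11 to 10.2 CPM in clusters 1, 4, 6 and 7.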

How the data were processed

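The deposited values are raw UMI counts per gene and cell barcode, which the authors made with Cell Ranger and STAR on mm10, per the submitters' processing notes. Tool versions: not given in the sources used here. No rule for calling cells is stated. The tables held whole numbers with a different total in each library (23710253, 45175863 and 14388327 UMIs in 1806, 4697 and 1780 barcodes), and 0 columns of per-sample values were left unused.

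The 10 genes, the other gene lists and the marker lists were chosen with earlier results of these data known. Cells with under 500 genes or over 10% mitochondrial UMIs were removed (39, 24 and 13 barcodes). Doublets were left in, and Scrublet removal (26, 176 and 25 barcodes) was an alternative; its automatic threshold marks 10, 2 and 3 barcodes and did not work. Levels are CPM, that is UMIs summed over cells per 1000000 non-reporter UMIs, with exact Poisson intervals, and ratios have exact conditional intervals. Shares come from cells thinned to 3000 UMIs (Clopper-Pearson intervals), all at a 95% level and covering counting error only. Each UMI is treated as independent. 3′ UMI counts are not divided by gene length, so levels are compared between samples and not between genes. A gene was tested against the 2-fold rule at 20 CPM or more in either library.

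For pairs, 0.5 was added to each cell of the 2 by 2 table, and both genes had to be in at least 50 cells. Clustering used 2000 variable genes without the 10 genes and without mitochondrial, ribosomal protein and sex-linked genes, 30 principal components, 15 neighbours and the Leiden method (resolution 1.0), with 21 clusters as the outcome. A name needed 3 or more markers of a class among a cluster's top 10 genes. The rule that a macrophage cluster holds C1qa at 1000 CPM or more, and the choice of clusters 2 and 3, were made after clusters were seen. The named genes are the 10 members, the genes of the lists, and for each member up to 3 of the 5 genes most like it; genes that lead a cluster are named to describe it. Python 3.11.15 was used with numpy 2.4.6, scipy 1.17.1, pandas 2.3.3, scanpy 1.11.5, scikit-learn 1.9.0, leidenalg 0.10.2 and igraph 0.11.9. The level, share and pair calculations were tested on simulated data. With 1 library a group no p-value was computed.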

Additional observations from a re-analysis of the deposited data

How the results depend on the processing

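No paired analysis was possible because each group has 1 library, and for the same reason no replicate could be left out. The count of 9 of 10 genes at least 2-fold lower at day 11 was 9 under every other cell filter, scaling and doublet setting with the first steady-state library as reference. It was 4 with the macrophage clusters of the third library as reference and 5 when cluster 16 was left out of that reference, an alternative added after seeing the data. Under these references Stab1 turned from lower to higher, at ratios of 2.33 and 1.74 over all kept day 11 cells. The same count was 9 without the B, T or NK clusters and without the monocyte-like clusters, both added after seeing the data. Over the 90 alternative level ratios against the first library, 81 were at or below 0.5, the ranges being 0.121–0.132 for Timd4, 0.132–0.144 for Lyve1, 0.222–0.254 for Folr2, 0.237–0.268 for Vsig4 and 0.630–0.666 for Stab1. At steady state 15 pairs passed an odds ratio of 3. With 2 UMIs needed to call a gene found, 21 of 21 pairs with enough cells passed at day 11 and 15 of 15 in the third library, where 45 passed without thinning. The share of cells with Timd4, Lyve1 and Folr2 followed depth. At steady state it was 10.2% thinned to 2000 UMIs, 27.7% at 5000, 48.1% unthinned and 3.79% with 2 UMIs needed. At day 11 it was 2.96% at 5000 UMIs, 4.88% unthinned and 0.218% with 2 UMIs needed. Of the 270 shares of single genes, 116 moved by more than their interval under some setting, chiefly of thinning or detection.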

Other observations

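Timd4 was also found outside macrophages. In the third library the 329 cDC1-like cells, a DC type that takes up dying cells, held Timd4 at 44.0 CPM (165 UMIs), where the macrophage clusters of that library held 40.7. After thinning, 35 of 321 cDC1-like cells (10.9%, 95% exact interval 7.71–14.8) had Timd4, against 10.4% of macrophages, and none of those 35 had Folr2 or Lyve1. In cluster 3 of the same library 58 of 117 cells had Timd4, and 57 of the 58 had Folr2. The other 9 genes stood at 0.799 to 6.13 CPM in cDC1-like cells, and Timd4 stood at 4.73 in the 342 cDC2-like cells. Cd163 was the member highest in cDC2-like cells, at 36.5 CPM in 22.5% of cells. Timd4 and Folr2 RNA together were thus found in macrophages of that library and in none of its 321 thinned cDC1-like cells.

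The reporter entries were read in the macrophages with at least 2 of the 4 receptors. TdTomato had 183 UMIs in the 899 steady-state cells (14.5 CPM, 12.4–16.7) and 16 UMIs in the 376 day 11 cells (3.84, 2.198–6.25). In the macrophages with fewer of the receptors it stood at 12.1 and 1.39 CPM. EYFP stood at 38.2 and 30.5 CPM with the receptors, and at 59.8 and 35.7 without. The labels give no labelling schedule, so these are values only.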
